A study of Mus musculus with 14 samples.

Results

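Respiratory complex I is built from subunits encoded in the nucleus and in mitochondrial DNA, and the transcripts described here are its nuclear subunits. Members were the rows whose gene symbol begins with Nduf, goes on with a, ab, b, c, s or v and ends in a number. The rule found 37 of 55228 symbols, on 15 chromosomes, and all 37 were among the 11757 genes with enough counts to be tested. The lowest count of any member in any library was 33.

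Complex I is the entry point of the respiratory chain. Its matrix arm takes electrons from NADH in the N module and hands them to ubiquinone in the Q module, and its membrane arm pumps protons into the intermembrane space. The core subunits carry the cofactors and the pumps and are conserved from bacteria, whereas accessory subunits surround and stabilise them. All pump subunits are mitochondrially encoded, so every nuclear core subunit sits in the matrix arm. Keratinocytes, the main cells of the epidermis, carry it in their mitochondria as other nucleated cells do.

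The study asked what cells keep of an injury that happened at some distance from them, and compared mouse tail epidermal cells from 2 regions. The distal group held 6 libraries from the region labelled as distal memory, and the control group held 8 libraries from a region labelled as non-memory. Cells of both groups had the genotype Lrig1CreER/Rosa-TdTomato, in which a recombinase expressed from the Lrig1 locus, active in progenitors of the upper hair follicle, switches on a red fluorescent protein. In both groups they were labelled as untreated, were taken at week 8 of the time point written 8w pw1, were sorted on the surface protein Sca1 and had 1 week of culture in keratinocyte medium before RNA was made. The measured RNA is therefore that of cultured cells that had left the tissue. The sample descriptions place the libraries in 4 sets, with replicates 1 to 2 and 3 to 6 in the distal group and replicates 1 to 6 and 7 to 8 in the control group. No set holds both regions. The labels do not tell whether libraries of a set are separate animals or cultures, and p-values cover the spread among libraries alone, whatever its source.

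Total counts were 2137934 to 4513518 in distal libraries and 4515646 to 7458872 in control libraries, without overlap. Values are CPM, counts relative to a library total that was scaled by the trimmed mean of M-values (TMM). The median log2 fold change, distal over control, of all tested genes was -0.16. Keratinocyte markers were abundant, and the sum of 6 of them was 9399 to 17210 CPM in distal libraries and 5765 to 9399 CPM in control libraries. Of the other cells looked for, the 6 fibroblast markers summed to 2.30 to 88.7 CPM in distal and 0.535 to 240.9 CPM in control libraries, with Lum at 0 in all. The 5 melanocyte markers reached at most 5.49 CPM in distal and 4.36 CPM in control libraries, with Dct at 0. The 5 immune markers reached 1.38 CPM in distal and 0.473 CPM in control libraries, with Cd3e and Cd207 at 0. The 3 endothelial markers reached 9.51 CPM in distal and 9.87 CPM in control libraries, with Cdh5 at 0, and both Merkel cell markers were at 0 throughout. The part that the keratinocyte and fibroblast markers have in the results below was not tested.

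Distal libraries had a different mixture of complex I transcripts, while the sums of the levels overlapped between the groups. Depth did not overlap between the regions and no set holds both, so differences of the cells and of the libraries cannot be told apart. Of 37 members, 20 rose, 11 fell and 6 did not pass the threshold, a Benjamini-Hochberg adjusted p under 0.05 in the quasi-likelihood test of edgeR. Among all tested genes 24.3% rose and 24.1% fell, 48.3% together. The median log2 fold change of the members was 0.63, with rises between 0.56 and 1.70 and falls between -1.16 and -0.59. The summed CPM of all members had a lowest value of 3707, a median of 4099 and a highest value of 4992 in distal libraries, against 3622, 4484 and 5634 in control libraries. The sums overlapped. Without Ndufa4, which is now counted with complex IV, the medians were 3715 CPM in distal and 3638 CPM in control libraries. Members took 0.408% to 0.494% of all counts in distal libraries (median 0.4707%) and 0.317% to 0.527% in control libraries (median 0.4295%). In bulk RNA, a lower level of a member can come from fewer cells of a type or from less RNA per cell. These cannot be told apart. In 16 members the lowest distal library exceeded the highest control library, and in 2, Ndufs1 and Ndufv2, the order was the opposite; among all tested genes the shares were 12.7% and 5.65%. The other 19 members overlapped between the groups.

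**Figure D1:**
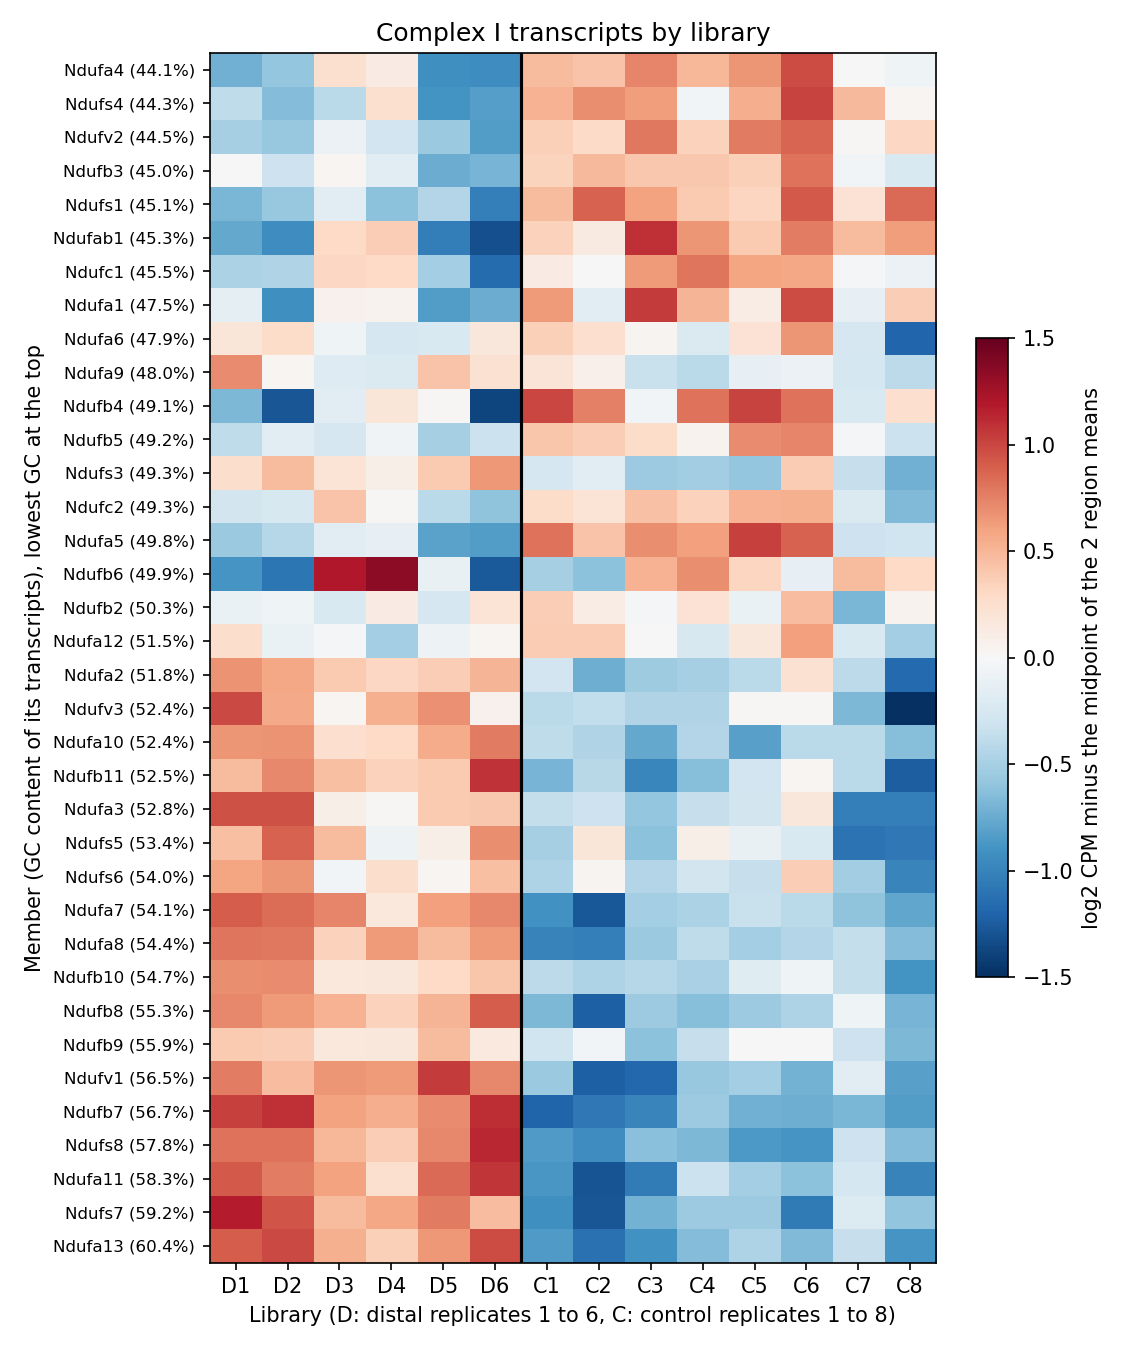
Log2 CPM of 36 of the 37 members in each library, as the difference from the midpoint of the distal and control means of that member. Columns are the 6 distal libraries (D) on the left and the 8 control libraries (C) on the right, and rows run from the lowest to the highest GC content of the transcripts, which is given beside each symbol. Rows near the top are mostly lower in distal libraries and rows near the bottom higher.

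The members that changed most are shown with every library. Ndufb7, an accessory subunit on the intermembrane space side of the membrane arm (chromosome 8, 83566671 to 83571626, plus strand, GRCm38), had 97.0, 102.0, 72.2, 69.8, 77.6 and 102.5 CPM in distal replicates 1 to 6, against 20.7, 22.7, 24.0, 32.8, 28.8, 28.6, 29.6 and 26.8 CPM in control replicates 1 to 8. The lowest distal library was above the highest control library. Its means were 86.9 ± 15.3 CPM in distal (SD, n = 6) and 26.7 ± 4.01 CPM in control libraries (SD, n = 8), and the log2 fold change was 1.70 ± 0.16 (SE, adjusted p = 1.6e-06 by edgeR). Ndufa13, a membrane arm subunit also known as GRIM-19 (chromosome 8, 69894180 to 69902558, minus strand), had 101.9, 107.9, 78.6, 69.5, 85.2 and 106.6 CPM in distal libraries and 30.2, 24.97, 28.9, 34.6, 39.3, 34.3, 42.6 and 29.3 CPM in control libraries. Its groups did not overlap either, with a log2 fold change of 1.47 ± 0.16 (SE, adjusted p = 3e-06 by edgeR). Ndufa11, another membrane arm subunit (chromosome 17, 56717767 to 56722141, plus strand), had 97.4, 87.8, 78.4, 60.8, 92.9 and 108.6 CPM in distal libraries and 28.3, 21.1, 25.1, 41.2, 36.2, 33.8, 43.2 and 25.7 CPM in control libraries. Again all distal values were the higher ones, and the log2 fold change was 1.46 ± 0.19 (SE, adjusted p = 9.6e-06 by edgeR).

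The largest fall was that of Ndufs1, the large core subunit that carries iron-sulfur clusters of the N module (chromosome 1, 63143596 to 63176833, minus strand). It had 78.0, 84.5, 111.6, 82.2, 92.3 and 61.8 CPM in distal replicates 1 to 6, against 174.7, 232.3, 191.2, 164.9, 157.0, 236.8, 146.1 and 225.4 CPM in control replicates 1 to 8. No distal library reached the lowest control library, and the log2 fold change was -1.16 ± 0.16 (SE, adjusted p = 2.2e-05 by edgeR). Ndufb4, a small membrane arm subunit (chromosome 16, 37647170 to 37654453, minus strand), had 21.8, 14.3, 31.2, 39.2, 35.0 and 13.3 CPM in distal libraries and 69.4, 58.7, 33.7, 61.0, 70.2, 61.0, 29.6 and 41.4 CPM in control libraries. Its groups overlapped through control replicates 3 and 7, and its log2 fold change of -1.03 ± 0.28 (SE) had an edgeR adjusted p of 0.0051. Without control set 1 it was -0.45 (edgeR adjusted p = 0.44), and without distal set 1 it was -0.77 (edgeR adjusted p = 0.052). Ndufa5, an accessory subunit of the Q module (chromosome 6, 24518666 to 24528013, minus strand), had 82.2, 90.3, 109.1, 111.8, 69.4 and 67.8 CPM in distal libraries and 214.0, 163.4, 196.5, 185.7, 246.3, 223.3, 98.1 and 98.9 CPM in control libraries. Control replicates 7 and 8, which form control set 2, lay within the distal range. The log2 fold change of Ndufa5 was -1.01 ± 0.22 (SE, adjusted p = 0.001 by edgeR) and -0.15 without control set 1 (edgeR adjusted p = 0.67).

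A stretch of the coding sequence is given for these 6 transcripts because, as described further on, the direction of a member went with its base composition. Each is coding bases 151 to 300, counted from the A of the start codon, in the GENCODE transcripts of GRCm38, with G and C in capitals. The 3 that rose come first and the 3 that fell after them.
Ndufb7: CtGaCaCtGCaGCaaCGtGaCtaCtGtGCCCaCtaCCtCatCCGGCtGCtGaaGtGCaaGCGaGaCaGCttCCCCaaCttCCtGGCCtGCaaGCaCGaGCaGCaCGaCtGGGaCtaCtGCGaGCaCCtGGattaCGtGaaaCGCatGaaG
Ndufa13: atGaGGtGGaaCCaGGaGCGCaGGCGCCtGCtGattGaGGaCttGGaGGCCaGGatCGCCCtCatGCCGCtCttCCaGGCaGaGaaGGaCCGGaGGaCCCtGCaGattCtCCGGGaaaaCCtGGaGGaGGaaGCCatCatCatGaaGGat
Ndufa11: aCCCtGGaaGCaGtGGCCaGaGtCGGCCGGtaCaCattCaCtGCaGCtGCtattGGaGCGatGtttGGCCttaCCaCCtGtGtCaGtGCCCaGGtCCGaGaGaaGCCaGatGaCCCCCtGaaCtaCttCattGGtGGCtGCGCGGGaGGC
Ndufs1: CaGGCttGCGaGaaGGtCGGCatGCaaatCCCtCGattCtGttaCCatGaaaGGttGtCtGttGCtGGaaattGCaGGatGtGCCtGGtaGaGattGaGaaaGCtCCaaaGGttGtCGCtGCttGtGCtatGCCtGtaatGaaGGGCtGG
Ndufb4: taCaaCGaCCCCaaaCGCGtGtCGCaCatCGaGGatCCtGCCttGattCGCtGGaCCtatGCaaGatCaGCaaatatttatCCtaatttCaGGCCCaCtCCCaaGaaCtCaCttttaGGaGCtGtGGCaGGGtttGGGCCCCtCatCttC
Ndufa5: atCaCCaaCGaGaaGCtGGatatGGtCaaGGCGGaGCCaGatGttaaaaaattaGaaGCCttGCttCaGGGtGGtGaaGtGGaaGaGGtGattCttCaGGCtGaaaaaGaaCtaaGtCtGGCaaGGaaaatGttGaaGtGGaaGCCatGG
Capitals made up 86, 89 and 89 of the 150 bases in Ndufb7, Ndufa13 and Ndufa11, and 75, 76 and 68 of them in Ndufs1, Ndufb4 and Ndufa5.

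Core subunits moved in both directions. Ndufv1, which binds NADH and the flavin that first accepts its electrons, averaged 89.97 ± 12.7 CPM in distal (SD, n = 6) and 33.9 ± 8.09 CPM in control libraries (SD, n = 8), and the log2 fold change was 1.41 ± 0.17 (SE, adjusted p = 6.6e-06 by edgeR). Its partner Ndufv2, the other subunit of the NADH dehydrogenase tip, averaged 188.6 ± 34.2 CPM in distal and 365.7 ± 77.8 CPM in control libraries, a log2 fold change of -0.95 ± 0.16 (SE, adjusted p = 0.00015 by edgeR). Ndufs1, in the same module, fell as described above. Neither Ndufv1 nor Ndufv2 overlapped between the groups, but by edgeR the fall of Ndufv2 did not pass without control set 1 (-0.63, adjusted p = 0.069), in libraries over 4000000 counts (-0.71, adjusted p = 0.068) or with counts summed per set (-0.69, adjusted p = 0.067).

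Core subunits of the Q module rose. Ndufs7, which carries the last iron-sulfur cluster before ubiquinone, averaged 106.9 ± 22.0 CPM in distal and 38.9 ± 9.003 CPM in control libraries, with a log2 fold change of 1.46 ± 0.18 (SE, adjusted p = 6.5e-06 by edgeR). Ndufs8, which carries the clusters that precede it, averaged 101.8 ± 19.1 CPM in distal and 37.1 ± 5.63 CPM in control libraries, with a log2 fold change of 1.45 ± 0.15 (SE, adjusted p = 2.3e-06 by edgeR). Neither of them overlapped between the groups. Ndufs3 overlapped, with 70.1 ± 9.89 CPM in distal and 44.3 ± 12.1 CPM in control libraries and a log2 fold change of 0.66 ± 0.18 (SE, adjusted p = 0.0048 by edgeR). In libraries over 4000000 counts Ndufs3 was at 0.44 (edgeR adjusted p = 0.32).

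Among the 30 accessory members 15 rose, 9 fell and 6 did not pass, and the modules were mixed throughout. For these and the module counts that follow, the shares of all tested genes were 24.3% higher and 24.1% lower. In the N module, 5 of 10 members rose and 3 fell (median log2 fold change 0.29). Ndufa7 (1.31), Ndufv3 (0.94), Ndufa2 (0.90) and the zinc-binding subunit Ndufs6 (0.63) rose on the log2 scale, whereas Ndufs4, whose loss causes Leigh syndrome in humans and a similar disease in mice, fell by 0.95 on that scale. The fall of Ndufs4 did not pass without control set 1 (-0.71, edgeR adjusted p = 0.1) or in libraries over 4000000 counts (-0.59, edgeR adjusted p = 0.17). Ndufa6 (-0.04), which binds the acyl carrier protein, and Ndufa12 (-0.17) did not pass with all libraries. In the Q module, 4 of 6 rose and Ndufa5 fell, and the accessory subunit Ndufa9 had a log2 fold change of 0.35 ± 0.17 (SE) that did not pass (edgeR adjusted p = 0.09).

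Of 9 subunits of the membrane arm next to the matrix arm, 6 rose and 2 fell (median log2 fold change 0.93). For this count and the one at the tip, the shares of all tested genes were again 24.3% and 24.1%. Beside Ndufa13 and Ndufa11, the rises were those of Ndufa8 (1.22) and Ndufs5 (0.80), which carry paired cysteine motifs and face the intermembrane space, of Ndufa10 (1.08), which resembles nucleoside kinases, and of Ndufa3 (0.93). The small X-linked subunit Ndufa1 fell by 0.84 and Ndufc1 by 0.61 on the log2 scale, and Ndufc2 (-0.37) did not pass. The fall of Ndufc1 was lost whenever distal replicate 1, 2, 5 or 6 or control replicate 3, 4, 5 or 6 was left out, with log2 fold changes of -0.57 to -0.40 (edgeR adjusted p = 0.051 to 0.11), and Ndufc2 passed without distal replicate 3 (-0.51) or control replicate 8 (-0.46). Towards the tip of the membrane arm, 5 of 10 Ndufb members rose and 3 fell (median log2 fold change 0.31). Ndufb8 (1.19), the X-linked Ndufb11 (1.13), Ndufb10 (0.81) and Ndufb9 (0.56) rose with Ndufb7, while Ndufb3 (-0.63) and Ndufb5 (-0.59) fell with Ndufb4. Ndufb2 (-0.13) and Ndufb6 (0.06) did not pass. Without control set 1, Ndufb3 was at -0.15 (edgeR adjusted p = 0.7), Ndufb5 at -0.11 (edgeR adjusted p = 0.72) and Ndufa1 at -0.51 (edgeR adjusted p = 0.25). In libraries over 4000000 counts Ndufc1 was at -0.08 (edgeR adjusted p = 0.86). Without distal replicate 5 the falls of Ndufb3 (-0.45; edgeR adjusted p = 0.057) and Ndufb5 (-0.44; edgeR adjusted p = 0.05, just over the threshold) no longer passed, and without distal replicate 6 that of Ndufb3 (-0.47; edgeR adjusted p = 0.054) did not.

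**Figure D2:**
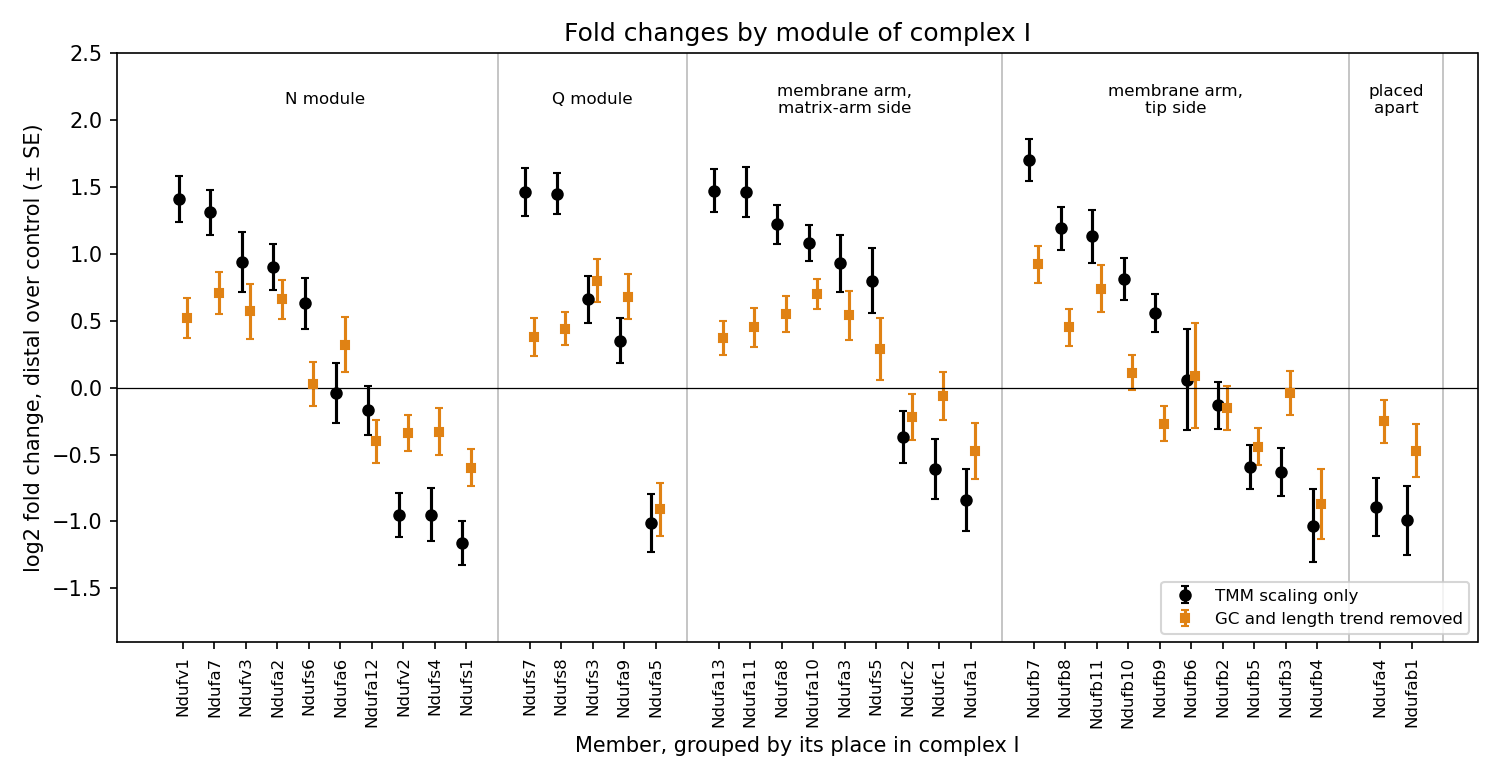
Log2 fold change, distal over control, of 36 of the 37 members with its standard error, ordered within its place in complex I. Black circles use TMM scaling only and orange squares have each library's trend with GC content and transcript length removed. Each module holds members above and below 0 in black, except the pair placed apart, and most orange squares lie nearer to 0.

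The pair placed apart from these modules fell when all libraries were used. Ndufab1, the mitochondrial acyl carrier protein, averaged 119.6 ± 63.2 CPM in distal (SD, n = 6) and 238.2 ± 50.4 CPM in control libraries (SD, n = 8), with a log2 fold change of -0.99 ± 0.26 (SE, adjusted p = 0.0043 by edgeR). Ndufa4, first described in complex I and now counted with complex IV, averaged 461.2 ± 175.5 CPM in distal and 852.9 ± 200.8 CPM in control libraries, with a log2 fold change of -0.89 ± 0.22 (SE, adjusted p = 0.0029 by edgeR). Without control set 1, Ndufab1 was at -0.95 (edgeR adjusted p = 0.12) and Ndufa4 at -0.36 (edgeR adjusted p = 0.44). In libraries over 4000000 counts, Ndufab1 was at -0.27 (edgeR adjusted p = 0.46) and Ndufa4 at -0.34 (edgeR adjusted p = 0.39), and with set sums Ndufa4 was at -0.59 (edgeR adjusted p = 0.15). Ndufa4 was also the most abundant member per length, at a median level of 849 CPM per kilobase in distal and 1872 in control libraries, followed by Ndufb6 at 407 in distal and 689 in control libraries. At the other end, Ndufab1 (25.3) and Ndufb4 (27.3) had the lowest median CPM per kilobase in distal libraries, and Ndufv3 (14.3) and Ndufv1 (21.03) the lowest in control libraries. These levels use 1 annotated transcript per gene, which for Ndufab1 is 3479 bases long, and are uncertain where cells use another.

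With TMM scaling only, levels of the members were closer to each other in distal libraries. The SD over the 37 members of log2 CPM per kilobase had a lowest value of 1.02, a median of 1.11 and a highest value of 1.22 in distal libraries, against 1.29, 1.39 and 1.54 in control libraries, so the groups did not overlap. Across members, the log2 fold change correlated with log2 control CPM per kilobase at Pearson r = -0.62 (n = 37 members). The points share the same libraries and the control level enters both measures, so this is a description. The SD was not taken over all tested genes or with the GC and length trend removed. Whether the closer levels are particular to these members was not tested.

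The direction of a member went with the GC content of its transcripts, which runs from 44.1% for Ndufa4 to 60.4% for Ndufa13. Of 21 members with at least 50% GC, a split chosen after the values were seen, 19 rose and 0 fell, and their median was 1.08 on the log2 scale; by edgeR the other 2, Ndufb2 (adjusted p = 0.55) and Ndufa12 (adjusted p = 0.44), did not pass. Of 16 members under 50% GC, 11 fell and 1, Ndufs3, rose, and their median was -0.73. All tested genes, members included, showed the same directions. Among all tested genes with at least 50% GC 47.9% rose and 5.51% fell (median 0.69), and among those under 50% GC 2.56% rose and 41.3% fell (median -0.64). Pearson r between log2 fold change and GC content was 0.89 over the 37 members and 0.70 over 11654 genes with a GC value, and 0.82 over the members for coding sequence alone. These correlations are across genes that share the same libraries, and genes are not replicates.

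The summed level of the members with at least 50% GC was 1676 to 2261 CPM in distal libraries and 822 to 1240 CPM in control libraries, with no overlap. The summed level of those under 50% GC was 1561 to 3262 CPM in distal libraries and 2800 to 4394 CPM in control libraries. Distal replicates 3 and 4, the deepest of their group with 4513518 and 4381280 counts, had 3251 and 3262 CPM of the second sum and lay inside the control range, whereas the other 4 distal libraries had at most 1930 CPM and lay below it.

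**Figure D3:**
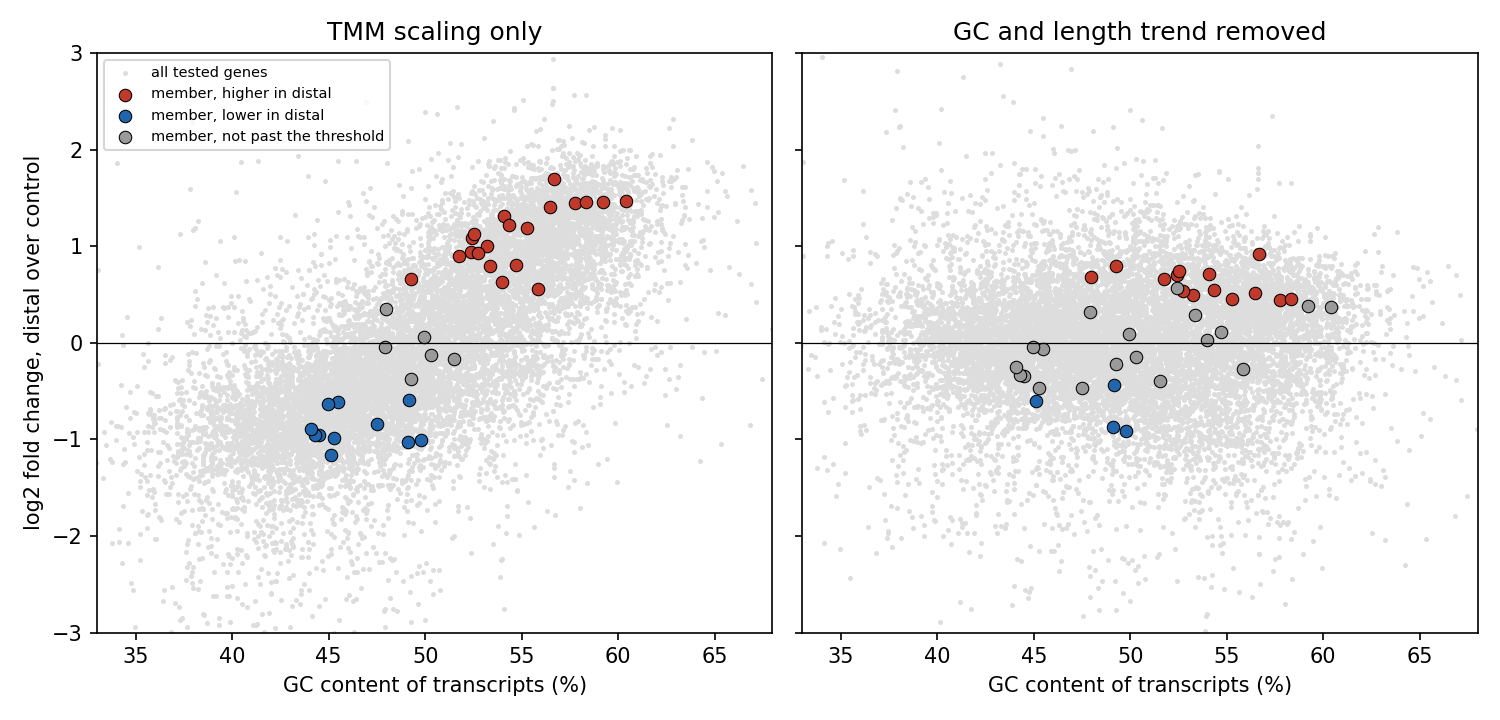
Log2 fold change, distal over control, against the GC content of transcripts in percent for the 37 members (large points) and all tested genes with a GC value (small grey points); the vertical axis leaves out the most extreme genes. On the left, with TMM scaling only, members follow the rising cloud (Pearson r 0.89 for members, 0.70 for all genes), and on the right, with the trend of each library removed, 14 members are higher and 4 lower in distal.

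When each library's trend with GC content and length was removed, fewer members passed. Then 14 rose, 4 fell and 19 did not pass, where among all genes 10.4% rose and 8.56% fell. Of the 14, 13 had also risen before, and all 4 that fell had fallen before. The median log2 fold change of the members was 0.29 in that fit, against 0.03 for all genes, and Pearson r with GC content was 0.55 over members and 0.04 over all genes.

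Ndufb7 kept the largest rise, at 0.92 ± 0.14 (SE, adjusted p = 0.00018 by edgeR), and Ndufs3 stood at 0.80, Ndufb11 at 0.74, Ndufa7 at 0.71, Ndufa10 at 0.70 and Ndufa2 at 0.66. Ndufa8 (0.55), Ndufa3 (0.54), Ndufv1 (0.52), Ndufb8 (0.45), Ndufa11 (0.45) and Ndufs8 (0.44) passed as well, and so did Ndufa9, which had not passed before, at 0.68 ± 0.17 (SE, adjusted p = 0.008 by edgeR). Ndufs7 (0.38; edgeR adjusted p = 0.068) and Ndufa13 (0.37; edgeR adjusted p = 0.052), which are the members richest in GC, no longer passed. Nor did Ndufv3 (0.57), Ndufs5 (0.29), Ndufb10 (0.11), Ndufs6 (0.03) and Ndufb9 (-0.27). Among the falls, Ndufa5 was at -0.91 (edgeR adjusted p = 0.0034), Ndufb4 at -0.87 (edgeR adjusted p = 0.026), Ndufs1 at -0.60 (edgeR adjusted p = 0.0051) and Ndufb5 at -0.44 (edgeR adjusted p = 0.033). The 7 falls that were lost included those of Ndufv2 (-0.34), Ndufs4 (-0.33), Ndufa4 (-0.25) and Ndufab1 (-0.47).

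The counts depended on the fit, and with counts thinned to the smallest total 20 members rose and 11 fell, among 23.4% and 23.5% of all genes. With counts summed into the 4 sets, 20 members rose and 2 fell, among 18.8% and 11.7% of all genes; the 2 were Ndufs1 (-0.97; edgeR adjusted p = 0.012) and Ndufab1 (-0.85; edgeR adjusted p = 0.033). Without control set 1, 20 rose and 1 fell, among 10.1% and 9.47% of all genes, and the fall was that of Ndufs1 (-1.12; edgeR adjusted p = 0.015). Libraries over 4000000 counts were distal replicates 3 and 4 and all 8 control libraries. In these, 12 rose and 1 fell, among 6.98% and 4.63% of all genes, and Ndufs1 was again the one that fell (-1.0, edgeR adjusted p = 0.02). The rises of Ndufs3, Ndufs5, Ndufs6, Ndufv3, Ndufa2, Ndufa3, Ndufb9, Ndufb10 and Ndufb11 did not pass there. With set sums and the trend removed together, edgeR called 0 members in either direction, among 1.07% higher and 1.62% lower of all genes, and 14 had an unadjusted p under 0.05 (11 higher and 3 lower), as had 21.9% of all genes.

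Ndufb6, a membrane arm subunit whose exons share 257 bases with Smim27 on the opposite strand, varied most within a region. It had 198.2, 173.0, 842.0, 925.5, 338.2 and 153.4 CPM in distal replicates 1 to 6, a 6.03-fold range, against 259.9, 239.0, 525.0, 591.9, 456.1, 335.2, 507.6 and 451.5 CPM in control replicates 1 to 8, a 2.48-fold range. Distal replicates 3 and 4 were above all control libraries and replicates 1, 2 and 6 below all of them. Its log2 fold change of 0.06 ± 0.38 (SE, adjusted p = 0.90 by edgeR) became -1.01 without distal set 2 (edgeR adjusted p = 0.018) and 1.05 in libraries over 4000000 counts (edgeR adjusted p = 0.028). Ndufab1 also split, with 195.0 and 205.2 CPM in distal replicates 3 and 4 and 63.8 to 92.8 CPM in the other distal libraries. Unlike Ndufb6, it lay within the control range of 174.4 to 337.9 CPM in replicates 3 and 4. In the same replicates Ndufa4 (709.1 and 656.7 CPM) and Ndufc1 (159.5 and 157.9 CPM) lay within their control ranges too. Their other distal libraries lay below those ranges. The steadiest members within the distal group were Ndufb9, with a 1.25-fold range, and Ndufa2, with a 1.28-fold range.

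**Figure D4:**
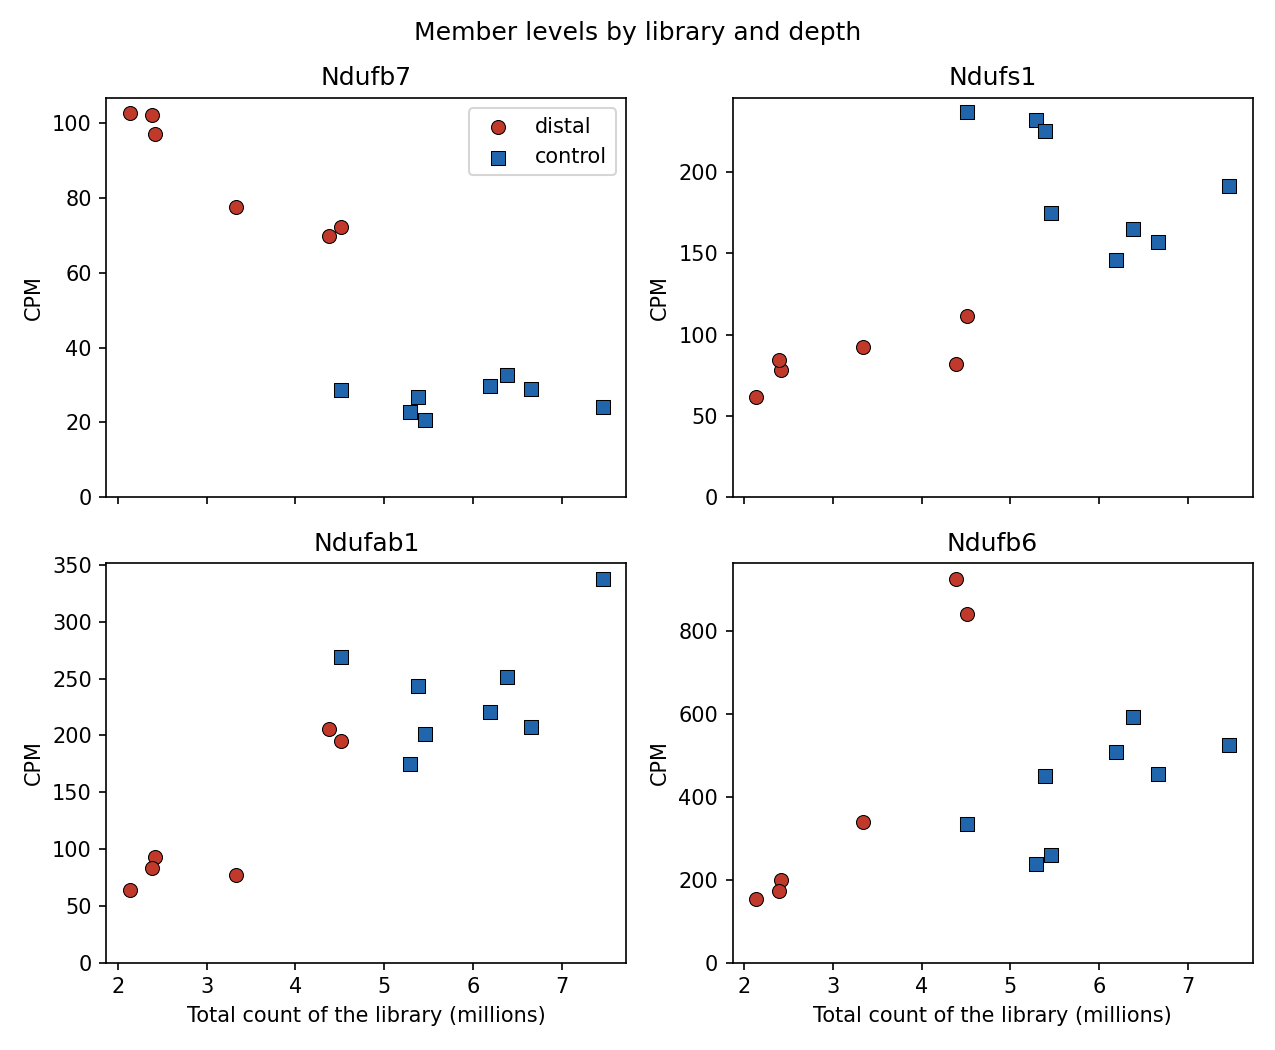
CPM of Ndufb7, Ndufs1, Ndufab1 and Ndufb6 against the total count of each library, with distal libraries as red circles and control libraries as blue squares. Distal libraries are all above the control libraries for Ndufb7 and all below for Ndufs1, and the deepest pair of distal libraries stands apart from the other 4 for Ndufab1 and Ndufb6.

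Between the 2 sets of a region, edgeR called 0 members and 0 of all genes after adjustment. In the distal group, 2 members (Ndufa3 and Ndufb6) had an unadjusted p under 0.05, as had 7.83% of all genes, and with the size factors of DESeq2 the count was 4 (7.39% of all genes). In the control group 11 members did, as had 8.24% of all genes, and the count was 12 with the trend removed (8.63% of all genes) and again 11 with DESeq2 size factors (8.17%). The log2 fold changes of the members ran from -0.71 to 1.61 between the distal sets (set 2 over set 1) and from -1.06 to 0.43 between the control sets, with medians of -0.12 and -0.29.

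Reads may be shared with neighbours for many members, also with those on the opposite strand. No source used here says whether counting used the strand. Exons of 16 members share bases with another gene, most in Ndufb5 (616 bases with Mrpl47), Ndufs1 (489 bases with Ino80dos) and Ndufa13 (375 bases with Tssk6), all on opposite strands. Of these 16 members 10 rose and 3 fell. Of the 21 members that share no exonic base, 10 rose and 8 fell. Among all tested genes 24.3% rose and 24.1% fell, and these shares were not split by overlap. Whether overlap bears on the direction was not tested. Symbols that the rule leaves out include Ndufb1-ps, a gene with a pseudogene name and 138.6 ± 76.3 CPM in distal and 285.8 ± 90.6 CPM in control libraries (SD), whose log2 fold change was -1.04 (edgeR adjusted p = 0.0071) and -1.44 with the trend removed (edgeR adjusted p = 0.0037). The near copies Ndufab1-ps, Ndufs6b, Ndufa4l2, Ndufb4c and Ndufa11b averaged at most 1.88 CPM in distal and 3.08 CPM in control libraries.

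Promoter sequences were searched for short words that transcription factors of respiratory chain genes, and of promoters in general, are known to bind. The RefSeq table for GRCm38.p6 holds 250 bases before and 50 bases from the transcript start on, and it matched 33 of the 37 members by symbol. Both strands were searched for 5 words. The letters AAGATGGC, part of the site bound by the zinc finger factor YY1, were in 7 of the 33 promoters (21.2%) and in 2.86% of 27025 promoters. The 27025 were not limited to tested genes, whereas all members were tested. Whether the share is particular to the members was not tested. Among matched members, 4 of 17 that rose and 2 of 10 that fell had them, and the remaining one was Ndufa9. All 7 matches read as spelt on the strand of the gene and began 23 to 39 bases from the transcript start, and in 6 of them, not in Ndufa3, the ATG inside the letters is the annotated start codon. Of 483 promoters that hold the letters as spelt, 51.6% have them within the same 50 bases. The matches are shown with 18 bases before and 4 bases after, 5′ to 3′ on the strand of the gene and with the searched letters in capitals, first for the members that rose, then for those that fell and then for Ndufa9.
Ndufs7: tgtctgaaggccgaggccAAGATGGCggcg
Ndufs6: gggtcaagggtcaccggcAAGATGGCggcg
Ndufb8: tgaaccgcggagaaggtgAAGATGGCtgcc
Ndufa3: cttgtcgccgccaagaacAAGATGGCcggg
Ndufs4: ctggcgtttgcctacaggAAGATGGCggcg
Ndufc1: aggcggagcctgcggaacAAGATGGCgccg
Ndufa9: cgtgaggcattgtgggagAAGATGGCggcc
Ndufs7 is at chr10:80249199-80249498 (plus strand) and Ndufs4 at chr13:114388045-114388344 (minus strand) in that build, as whole windows. GGGCGG, the core of SP1 sites, was in 15 of 33 member promoters (45.5%) and 35.6% of all, and CCAAT in 10 (30.3%) and 37.8% of all. The palindromic core of sites of nuclear respiratory factor NRF1 was in Ndufa11 alone (3.03%) and in 0.962% of all, and CCGGAAGT, a site of ETS factors, in Ndufs3 alone (3.03%) and in 3.93% of all. A match describes letters in a window and no binding was measured.

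For other genes of the pathway, the shares to compare with under TMM scaling of all libraries are 24.3% higher and 24.1% lower. Among 18 assembly factors, which build the complex without staying in it, 3 rose, 3 fell and 12 did not pass. Their median log2 fold change was -0.01, and a smaller share passed the threshold than among all genes. With the trend removed, the counts were 0 and 1, among 10.4% and 8.56% of all genes. Without control set 1 there were 0 rises and 1 fall, among 10.1% and 9.47% of all genes. Libraries over 4000000 counts gave the same counts, among 6.98% and 4.63%. Without distal replicate 4 there were 5 rises and 4 falls, among 27.3% and 22.0%. Ndufaf1, a chaperone of membrane arm intermediates, averaged 18.2 ± 3.93 CPM in distal and 48.8 ± 10.3 CPM in control libraries, with a log2 fold change of -1.42 ± 0.20 (SE, adjusted p = 2e-05 by edgeR) and of -0.92 with the trend removed (edgeR adjusted p = 0.0017). Ndufaf4 (-0.90; edgeR adjusted p = 0.0025), which acts on the Q module, and Tmem70 (-0.61; edgeR adjusted p = 0.0066), which also serves ATP synthase, fell, and Ndufaf8 (1.12; edgeR adjusted p = 0.0014) rose. None of these 3 passed with the trend removed, at 0.03, -0.32 and 0.19.

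Of the 7 mitochondrially encoded subunits of complex I, 6 were tested, of which 3 fell and 0 rose (median log2 fold change -0.62). The falls numbered 5 without distal replicate 3 (median -0.78) and 5 without distal set 2 (median -1.05), among 26.3% and 18.1% of all genes. They numbered 0 without control set 1 (median -0.82) and 0 in libraries over 4000000 counts (median -0.13), among 9.47% and 4.63%. With all libraries the falls were those of mt-Nd6 (-0.87; edgeR adjusted p = 0.0024), mt-Nd5 (-0.88; edgeR adjusted p = 0.0055) and mt-Nd4 (-0.73; edgeR adjusted p = 0.012). With the trend removed none of the 3 passed and mt-Nd3, at 0.76 before (edgeR adjusted p = 0.098), was at 1.87 (edgeR adjusted p = 0.0011), from a level of 8.11 ± 2.40 CPM in distal and 4.78 ± 2.20 CPM in control libraries. The summed level of these genes was 8145 to 25060 CPM in distal and 16790 to 33190 CPM in control libraries, which overlapped, and no source used here says how reads that match several places were counted.

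Among 38 nuclear subunits of complexes II to V, 20 rose and 9 fell (median log2 fold change 0.42). With the trend removed 13 rose and 5 fell, among 10.4% and 8.56% of all genes. Set sums gave 19 that rose and 1 that fell, among 18.8% and 11.7%. Leaving out control set 1 also gave 19 and 1, among 10.1% and 9.47%. Libraries over 4000000 counts gave 11 and 1, among 6.98% and 4.63%. The summed level of these genes was 9657 to 10470 CPM in distal and 8210 to 12780 CPM in control libraries, which overlapped as the sums of the complex I members did. Of 6 tested regulators of mitochondrial biogenesis 2 rose and 2 fell, among 24.3% and 24.1% of all genes. Without control set 1, 0 rose and 1 fell (10.1% and 9.47% of all genes). The counts were 0 and 0 in libraries over 4000000 counts (6.98% and 4.63%), and 2 and 0 without distal set 1 (20.9% and 14.2%). With all libraries they were the nuclear receptor gene Esrra (1.71; edgeR adjusted p = 0.00036), the coactivator gene Pprc1 (0.65; edgeR adjusted p = 0.0038), Yy1 (-0.63; edgeR adjusted p = 0.009) and Tfam (-0.58; edgeR adjusted p = 0.011), which packages and transcribes mitochondrial DNA. None passed with the trend removed, at 0.59, -0.17, -0.08 and 0.12. Nrf1 (0.26) and Gabpa (-0.45) did not pass, and Ppargc1a and Ppargc1b had too few counts to be tested.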

How the data were processed

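The table that the authors deposited gives, for each symbol and each of 14 libraries, an unnormalised read count; libraries were made with Smart-seq2 and Nextera XT per the labels' protocols. Reads were aligned with HISAT2 and counted with featureCounts on mm10/GRCm38, per the submitters' processing notes; no source used here gives strand use or the handling of multiply mapped reads. The test was the two-sided, robust quasi-likelihood F test of edgeR 4.0.16 (R 4.3.3) after filterByExpr and TMM, adjusted by Benjamini-Hochberg over all tested genes with a threshold of 0.05. Fold changes are distal over control, with an SE taken as their absolute log2 value over the root of F. The GC and length trend was fitted per library with natural splines (4 degrees of freedom each, prior count 2) on transcripts of the GENCODE annotation of GRCm38 and entered as offsets; 11654 tested genes had a GC value. Depth limits the distal libraries most, with as few as 2137934 counts.

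The members, gene lists, tests and alternatives were chosen with earlier results of these data known. The rule for names took all members, in full the 3 largest rises, the 3 largest falls and the core subunits (the values of 1 member are not reported here, though it is in all counts and medians), and up to 4 genes with the smallest p from each related list. Modules, assembly factors, mitochondrially encoded subunits, complexes II to V, regulators and cell type markers were listed from textbook knowledge. Alternatives were other scalings and filters, DESeq2 1.42.0, set sums, trend removal, a replicate block, thinned counts, deep libraries only, and leaving out each library and set. The code was tested on simulated counts.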

Additional observations from a re-analysis of the deposited data

Results flagged for a closer look

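In 74 groups of values (37 members in 2 regions), 3 held a library that stood apart from the rest of its region by Dixon's criterion; chance alone flags about 1 group in 20. Ndufs4 was at 205.7 CPM in distal replicate 4, and at 93.7 to 133.9 CPM in the other distal libraries. Ndufs3 was at 71.2 CPM in control replicate 6, and at 33.1 to 48.8 CPM in the other control libraries. Ndufs8 was at 49.1 CPM in control replicate 7, and at 31.9 to 39.2 CPM in the other control libraries. The cause was not tested.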

How the results depend on the processing

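The count of members that rose stayed within 1.5 times of 20 in each setting but 3: it was 12 with the replicate block and the trend removed (8.8% of all genes), 12 in libraries over 4000000 counts, and 0 with set sums and the trend removed. The count that fell, 11, was 4 with the trend removed, 2 with set sums, 0 with both, 7 with the replicate block and the trend removed (7.98% of all genes), 1 in libraries over 4000000 counts and 1 without control set 1. Leaving out each library in turn gave 20 to 21 that rose and 8 to 12 that fell. In these fits 22.8% to 27.3% of all genes rose and 17.9% to 26.3% fell. DESeq2, its size factors, thinned counts and no filter on low counts left all 37 calls the same, and upper-quartile scaling gave 21 and 10 (27.7% and 18.7% of all genes). Without the filter, 10.2% of 26607 genes rose and 10.5% fell. Deviations from the region means correlated at -0.02 to 0.11 in same-numbered pairs, and 2 of 6 pairs matched best with their own number. These values have no reference to compare with, so they cannot tell whether replicate numbers pair the libraries. The sample descriptions number libraries within each set, and same-numbered replicates of the regions carry different numbers there. The block therefore pairs libraries by their running replicate number alone. The replicate block gave 20 that rose and 12 that fell, among 23.4% and 22.3% of all genes.

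With the trend removed, assembly factors had 0 rises and 1 fall, mitochondrially encoded subunits 1 and 0, complexes II to V 13 and 5, and regulators 0 and 0. The shares of all genes were 10.4% and 8.56%. With set sums the falls were 0 for mitochondrially encoded subunits, 1 for complexes II to V and 0 for regulators (11.7% of all genes). Upper-quartile scaling gave 1 fall for regulators (18.7% of all genes).

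Some fold changes, none called on both sides of 0 except that of Ndufb6, changed sign. Given here are those that moved by more than their SE or passed in a setting; smaller moves, such as those of Ndufb6 to -0.13 without control set 1 and to -0.12 with set sums and the trend removed, are not all listed. With the trend removed, Ndufa6 was at 0.32 and Ndufb9 at -0.27. With set sums, Ndufa6 was at 0.35, Ndufa12 at 0.17 and Ndufb2 at 0.14. With both, Ndufa6 was at 0.54, Ndufc1 at 0.12, Ndufb3 at 0.22 and Ndufb9 at -0.19. With the replicate block and the trend removed, Ndufs6 was at -0.08 and Ndufb9 at -0.34. In libraries over 4000000 counts Ndufa9 was at -0.08. Without control set 1, Ndufa6 was at 0.67, Ndufa12 at 0.31, Ndufc2 at 0.28 and Ndufb2 at 0.22. Without distal set 2, Ndufa6 was at 0.33, Ndufa12 at 0.14 and Ndufb6 at -1.01, and with 1 library left out Ndufa12 ran from -0.24 (without control replicate 8) to 0.03 (without distal replicate 4). Leaving out single libraries ended the call of Ndufc1 in 8 cases and made Ndufa9 pass in 4, without distal replicates 2, 3 or 4 or control replicate 2 (0.42 to 0.55). The causes were not tested. Set sums and left-out sets have fewer libraries. Sets are nested in regions, so set and region cannot be told apart.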
